A study of Mus musculus with 18 samples.

Results

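The genes described here are the 10 subunits of the CTLH ubiquitin ligase, Gid4, Gid8, Wdr26, Maea, Rmnd5a, Rmnd5b, Ranbp9, Ranbp10, Armc8 and Mkln1, taken by symbol from an mRNA-seq table of 55450 genes. Each symbol had 1 row. CTLH is the mammalian counterpart of the yeast GID complex, an E3 ligase named for the degradation of gluconeogenic enzymes that follows the return of glucose. MAEA pairs with RMND5A or RMND5B to form the catalytic RING core, GID8 and RANBP9 or RANBP10 form the scaffold, and ARMC8 docks GID4, the receptor for substrates that begin with proline. WDR26 and MKLN1 are further subunits that join the units into larger assemblies, and UBE2H is the E2 enzyme that supplies the ubiquitin.

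The study asked what a hotspot mutation in the RNase IIIb domain of Dicer, as found in tumors, does to miRNAs and their targets. It used P19 cells, a mouse embryonic carcinoma line, in 3 isogenic genotypes with 6 samples each. WT cells are Dicer +/+. HetKO cells are Dicer +/-, with a CRISPR-made frameshift that truncates one allele. HM cells are Dicer HM/-, derived from HetKO, so they carry the same truncated allele and have the hotspot mutation on the other. No treatment was applied. Each genotype is represented by a single cell line, so the effect of the genotype and that of the line cannot be told apart, and the p-values measure the spread between samples of a line. The labels do not say whether the 6 samples came from separate cultures. Gid4 was one of the targets of a passenger 3p-miRNA, miR-30a-3p, that the study took into reporter assays. With that miRNA expressed from a vector, it reported stronger repression of a Gid4 3′ UTR reporter in HM than in WT. The study took targets of passenger 3p-miRNAs from AGO2 CLASH, in which miRNAs held by Argonaute are ligated to the RNA they bind. Gid4 and Rmnd5a both belong to its list of such targets that also had lower mRNA in HM than in WT in these same samples. Their differences between HM and WT are therefore given as a description, without a test, and the other comparisons share samples with that one.

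Values are TPM, abundances scaled for transcript length and to a fixed total in each sample, so levels of different genes can be compared. Sequencing depth per sample is unknown. Within HetKO and HM the samples fell into closely alike pairs: the robust SD of log2 differences, taken over 683 genes averaging 200 TPM or more, was 0.051 to 0.105 within the pairs and 0.164 to 0.358 between other samples of the same line. The corresponding WT pairs were less distinct, at 0.049 to 0.075 against 0.073 to 0.205, and analyses on pair means average them all the same. Values that rest on HetKO replicates 2 and 5 or on HM replicates 2 and 3, each 1 pair of its line, are given with and without them. The closeness of the pairs does not set these 2 pairs apart from the other pairs, which were not left out in turn. All 8 embryonic carcinoma markers were at or above 1 TPM in every line, with summed levels of 3129 to 3623 TPM in WT, 2945 to 3522 TPM in HetKO and 3362 to 3895 TPM in HM. Of the 8, Nanog was lower in HM than in WT (log2 fold change -1.24) and than in HetKO (-2.10), and Sox2, Utf1 and Lin28a were higher in HM than in both, and the part of these differences in the results below was not tested. The 12 markers of differentiated cells summed to 10.95 to 14.6 TPM in WT, 7.72 to 12.1 TPM in HetKO and 5.01 to 7.67 TPM in HM, and Afp was listed at 0 in all HetKO samples. Dicer1 ranged from 49.2 to 54.8 TPM in WT, 42.9 to 53.8 TPM in HetKO and 35.4 to 44.2 TPM in HM. The alleles differ by edits within the coding sequence, so this level does not itself check the genotypes.

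The sequences below show the miRNA by which the study chose Gid4 and the sites of the same seed in the subunits. A miRNA recognises targets mainly through its seed, bases 2 to 8, here in capitals. Mature sequences are from RefSeq (GRCm38.p6). The first is miR-30a-3p (chr1:23272315-23272336, plus strand), and the others are the passenger 3p-miRNAs whose seeds recur in Rmnd5a. miR-17-3p and miR-20b-3p share 1 seed.
miR-30a-3p: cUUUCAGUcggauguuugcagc
miR-17-3p: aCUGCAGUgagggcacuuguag
miR-20b-3p: aCUGCAGUgugagcacuucuag
miR-7a-1-3p: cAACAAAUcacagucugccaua

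Matches were counted in the longest annotated 3′ UTR of each gene in GRCm38 (GENCODE vM21), on the sense strand only. A 7mer-m8 match pairs with bases 2 to 8 of the miRNA, a 7mer-A1 match pairs with bases 2 to 7 and is followed by A, and an 8mer match has both. For miR-30a-3p the 7mer-m8 match reads ACTGAAA on the mRNA. Gid4 (ENSMUSG00000018415.14, chr11:60417145-60450927, plus strand) had 2 matches to miR-30a-3p, both 7mer-m8 and both in exon 6 of 6, the last exon. They begin at bases 293 and 1081 of a 3′ UTR of 3235 bases. The sites of Rmnd5a (exon 9 of 9) and Wdr26 (exon 14 of 14), both on the minus strand, are shown for comparison, written in the sense of the mRNA with the match in capitals.
Gid4, chr11:60442324-60442352: acttctgcatcACTGAAAtgccatctttc
Gid4, chr11:60443112-60443140: cggaaaggatgACTGAAAtgttgtcatgg
Rmnd5a, chr6:71390861-71390889: aagggcccagaACTGAAActtgatcttaa
Wdr26, chr1:181175225-181175254: ccaatgtataaACTGAAAAgtaccaatact

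A 7mer or 8mer match to miR-30a-3p was found in 4 of the 10 subunits, Gid4, Wdr26, Rmnd5a and Mkln1, beside 26.2% of the 12113 genes with a 3′ UTR examined. With all annotated 3′ UTR isoforms joined, Armc8 was added. Gid4 and Mkln1 had 2 matches each, where 7.82% of genes had 2 or more, and Wdr26 had the 8mer, found in 6.56% of genes. The 3′ UTRs of these 4 genes are long, longer than 86.1% of those examined for Gid4, 94.1% for Rmnd5a, 94.4% for Wdr26 and 99.6% for Mkln1, against a median of 1187 bases. Rmnd5a had, beside its match to miR-30a-3p, 4 to the shared seed of miR-17-3p and miR-20b-3p and 3 to miR-7a-1-3p. Its paralog Rmnd5b, with a 3′ UTR of 410 bases, had none to any of the 5 passenger 3p-miRNAs searched. Of all genes examined, 28.8% had a match to the shared seed and 8.18% had 2 or more. For miR-7a-1-3p these shares were 30.9% and 10.98%. Mkln1 also had 4 matches to the shared seed, and none to miR-7a-1-3p. Maea, Ranbp10 and Armc8 each had 1 to the shared seed and 1 to miR-7a-1-3p. By limma, Wdr26, Mkln1, Maea, Ranbp10 and Armc8 did not pass between HM and WT, beside 51.4% of all genes that did. After centring each sample on its median, Maea and Armc8 passed higher in HM (adjusted p = 0.00971 and 0.000912 from limma), beside 52.6% of all genes. Mkln1 was lower in HM than in HetKO (-0.38 on the log2 scale, adjusted p = 0.000947 from limma), beside 34.6% of all genes called. Whether the matches bear on these differences was not tested. Gid4 had no 7mer or 8mer match to the 4 other passenger 3p-miRNAs. It had 1 match to each of 4 seeds of 5p-miRNAs, those of miR-15b-5p and miR-16-5p, miR-17-5p and miR-20b-5p, miR-26a-5p, and miR-30a-5p. A match of letters is a description and does not show binding.

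**Figure D1:**
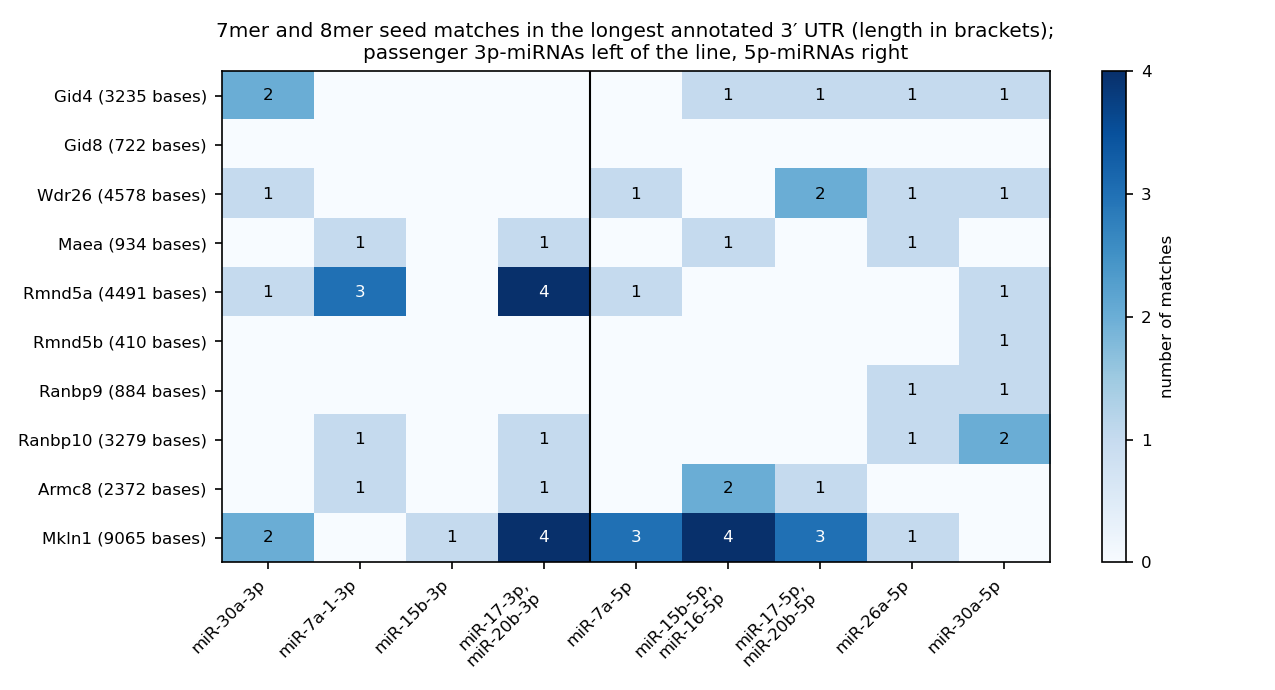
Number of 7mer and 8mer seed matches in the longest annotated 3′ UTR of each subunit gene (rows, with the 3′ UTR length in bases) for passenger 3p-miRNAs (left of the line) and 5p-miRNAs (right), miRNAs of 1 seed being joined. Gid4 has 2 matches to miR-30a-3p and none to the other passenger 3p-miRNAs, and Mkln1, with 9065 bases, has matches in most columns.

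Over the 18 samples, Maea and Mkln1 had the highest mean levels of the subunits, 92.6 and 92.1 TPM, and their order changed between samples, Maea being higher in 10 of 18. Wdr26 followed at 72.4 TPM, Rmnd5a at 52.5 TPM, Gid4 at 42.5 TPM, Gid8 at 36.6 TPM, Ranbp9 at 28.6 TPM, Armc8 at 24.2 TPM, Rmnd5b at 23.0 TPM and Ranbp10 at 13.0 TPM. Rmnd5a was higher than Gid4 in 18 of 18 samples, whereas Gid4 was higher than Gid8 in 12 of 18, so the order of this last pair was not fixed either. Wdr26 was above Rmnd5a and Rmnd5b above Ranbp10 in all 18 samples, and the 4 remaining pairs of neighbours kept their order in 14 to 16 of 18. Among the 13955 genes that averaged 1 TPM or more, the subunits lay between the 45.2 percentile for Ranbp10 and the 88.3 percentile for Maea. Gid4 had the largest coefficient of variation of the 10 genes over the samples, 25.8%, and Ranbp10 the smallest, 6.16%.

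Differences between lines were tested with limma on log2(TPM + 1), with Benjamini-Hochberg adjustment over every gene that averaged 1 TPM or more in the comparison. An adjusted p under 0.05 is called a change. Adding 1 to each TPM makes the differences of low genes appear smaller than they are. Between HM and WT, none of the 8 subunits other than Gid4 and Rmnd5a passed by limma, beside 51.4% of all genes tested (19.4% higher and 32.0% lower). Of these 8, 1 had an unadjusted p under 0.05, Ranbp9. In the unequal-variance test per gene none of the 8 passed after adjustment, beside 47.9% of all genes, and 3 had an unadjusted p under 0.05, Ranbp9, Armc8 and Wdr26. Gid4 and Rmnd5a, listed by the study partly on this contrast, were lower in HM without overlap with WT, and their count is not read against the background. Between HetKO and WT, 2 of 10 passed, Mkln1 higher and Wdr26 lower, beside 10.2% of all genes (3.71% higher and 6.44% lower). Between HM and HetKO, 4 of 10 passed. Of the 8 subunits other than Gid4 and Rmnd5a, Maea was higher and Mkln1 lower, beside 34.6% of all genes (14.0% higher and 20.6% lower). Gid4 and Rmnd5a were lower, in the same HM samples on which they were partly listed, and are not read against the background. The median log2 fold change of the 10 subunits was -0.09, -0.09 and 0.08 in the 3 comparisons, and that of all genes tested -0.09, -0.03 and -0.05. On the means of the pairs, 3 values a line, none of the 8 subunits passed between HM and WT, beside 24.3% of all genes. By limma 0 of 10 subunits passed in either comparison with HetKO, where only 0.3% of all genes passed against WT and 3.3% against HM. An unadjusted p under 0.05 was found for 2 of 10 against WT, beside 1452 of 13999 genes. Against HM it was found for 3 of 10, Gid4 and Rmnd5a among them, beside 3382 of 13762 genes.

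The scale of the samples bears on the small differences. After centring each sample on its median, the median difference of HM from WT over the genes tested moved from -0.09 to 0.08, and the share of calls that were higher in HM from 37.7% to 61.0%. On that scale Gid8, Maea, Rmnd5b and Armc8 passed higher in HM, 4 of the 8 subunits not on the study's list, beside 52.6% of all genes called. With quantile normalization the share of calls that were higher was 51.1%, and Rmnd5b and Armc8 passed higher, beside 50.6% of all genes called. Between HM and HetKO, 6 of 10 subunits passed after centring. Among the 8 not on the study's list, Gid8, Wdr26 and Maea were higher and Mkln1 lower, beside 35.3% of all genes. Gid4 and Rmnd5a were lower and are not read against that share. The share of calls that were higher in HetKO than in WT was 36.5%, and 50.7% after centring and 48.1% with quantile normalization. For HM against HetKO the shares of calls that were higher were 40.4%, 60.9% and 49.3% in the same order. Gid4 and Rmnd5a were the only subunits lower in HM than in both other lines on all 3 scales.

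**Figure D2:**
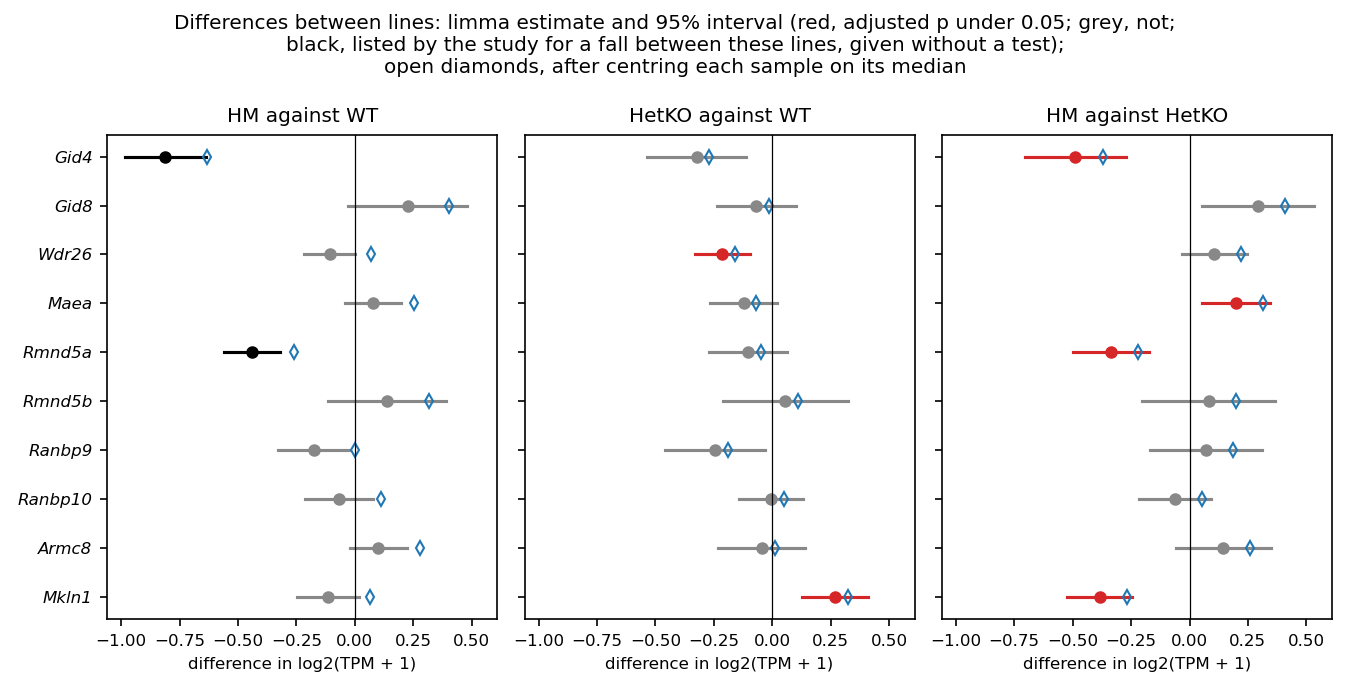
Difference in log2(TPM + 1) of each subunit in the 3 comparisons of lines (points, limma estimates; bars, 95% intervals; n = 6 samples a line), with the estimate after centring as open diamonds. The intervals of Gid4 and Rmnd5a lie below 0 in HM against WT and against HetKO, and centring moves every point of HM against WT to the right.

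Gid4, the substrate receptor, was lowest in HM. In WT it ranged from 46.2 to 58.9 TPM with a median of 55.9, in HetKO from 34.5 to 47.4 TPM with a median of 46.8, and in HM from 27.4 to 34.9 TPM with a median of 29.8. No HM sample reached the lowest WT sample, and 28.5% of all genes had no overlap between these lines in 1 direction or the other. HetKO replicates 2 and 5, at 34.5 and 36.5 TPM, lay beside the highest HM sample, while the other 4 HetKO samples lay between 46.7 and 47.4 TPM, within the range of WT. HM differed from WT by a log2 fold change of -0.81 (SE 0.08), described without a test. Between HM and HetKO it was -0.49 (SE 0.10, adjusted p = 0.00302 from limma), or -0.62 without HetKO replicates 2 and 5 (adjusted p = 0.000143), and on pair means the adjusted p was 0.124. Between HetKO and WT it was -0.32 (SE 0.10), which did not pass (adjusted p = 0.0551 from limma). That value was -0.19 without HetKO replicates 2 and 5 (adjusted p = 0.147), and the adjusted p was 0.0383 after centring, 0.0395 with quantile normalization and 0.0351 in a single fit of the 3 lines. In bulk RNA, fewer cells expressing a gene and less RNA of it per cell cannot be told apart.

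The first exon of Gid4 lies beside another gene. Atpaf2, an assembly factor of the mitochondrial ATP synthase (chr11:60400626-60418457, minus strand), overlaps the 5′ end of Gid4 by 1313 bases on the opposite strand. The library kit was stranded, but the strand setting of the counting is not given in the sources used here. Atpaf2 ranged from 37.6 to 46.2 TPM in WT and from 49.0 to 59.8 TPM in HM without overlap, with a log2 fold change of 0.34 (SE 0.07, adjusted p = 0.00141 from limma), so it moved in the opposite direction to Gid4. Tom1l2, a gene of endosomal sorting that lies beyond Atpaf2 on the same side, fell from a mean of 13.5 TPM in WT to 7.59 TPM in HM, by 0.76 on the log2 scale (SE 0.07, adjusted p = 7.32e-06 from limma). Past the 3′ end of Gid4, Drg2, a GTPase gene, ranged from 76.6 to 88.0 TPM in WT and from 101.7 to 132.4 TPM in HM without overlap, at a log2 fold change of 0.57 (SE 0.07, adjusted p = 3.08e-05 from limma). Of 18 genes tested whose start lies within 500 kb of the Gid4 start, 6 were higher and 7 lower in HM than in WT, and the median of the 18 differences was 0.13 on the log2 scale. Around Rmnd5a, 3 of 12 genes were higher and 4 lower, with a median of -0.01. The 4 lower genes start within 267 kb of Rmnd5a: Krcc1 (-0.71), Rnf103 (-0.53), Kdm3a (-0.67) and Reep1 (-0.91). Chmp3, also within that distance, was at -0.16 and did not pass. The 3 higher genes, Mrpl35, Ptcd3 and Polr1a, start 386 to 468 kb away. The 4 lower genes were also lower in HM than in HetKO. Whether Rmnd5a and these genes share a cause was not tested. Of all genes tested, 19.4% were higher and 32.0% lower in HM than in WT, with a median of -0.09, and 28.5% had samples without overlap.

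Armc8, which docks GID4 on the complex, ranged from 23.0 to 24.9 TPM in WT, 18.8 to 27.2 TPM in HetKO and 23.7 to 28.3 TPM in HM. The lines overlapped. Its log2 fold change was 0.10 between HM and WT (95% interval -0.02 to 0.22, adjusted p = 0.153 from limma) and -0.04 between HetKO and WT (-0.23 to 0.14, adjusted p = 0.763). Between HM and HetKO it was 0.15 (adjusted p = 0.244), and 0.26 without HetKO replicates 2 and 5 (adjusted p = 0.0218), which were the highest HetKO samples for this gene at 26.8 and 27.2 TPM.

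The catalytic core comprises Maea, Rmnd5a and Rmnd5b, which encode its RING-type subunits. Rmnd5a (ENSMUSG00000002222.14, chr6:71388634-71440637, minus strand) ranged from 53.5 to 62.4 TPM in WT with a median of 61.2, from 45.7 to 60.5 TPM in HetKO with a median of 57.9, and from 40.0 to 45.2 TPM in HM with a median of 43.6. All HM samples lay below all samples of the other lines. Samples did not overlap, in either direction, for 28.5% of all genes in HM against WT and for 15.5% in HM against HetKO. In HM against WT the log2 fold change was -0.44 (SE 0.06), described without a test, and against HetKO it was -0.34 (SE 0.08, adjusted p = 0.0053 from limma). Without HetKO replicates 2 and 5 the latter was -0.44 (adjusted p = 0.000166), and on pair means the adjusted p was 0.161. After centring the differences were -0.26 against WT and -0.22 against HetKO (adjusted p = 0.0222 for the latter). Between HetKO and WT it was -0.10 (95% interval -0.27 to 0.06, adjusted p = 0.399 from limma).

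The paralog Rmnd5b was less abundant and passed in none of the 3 comparisons by limma. It ranged from 17.8 to 24.8 TPM in WT, 17.2 to 26.3 TPM in HetKO and 20.2 to 30.8 TPM in HM, with full overlap. HM differed from WT by 0.14 on the log2 scale (95% interval -0.11 to 0.39, adjusted p = 0.347 from limma). HM replicates 2 and 3 were the highest, at 27.6 and 30.8 TPM, and without them the value was -9.6e-05. After centring it was 0.32 (adjusted p = 0.0151), and with quantile normalization 0.26 (adjusted p = 0.0432). Rmnd5b overlaps Nhp2, on the opposite strand, by 44 bases.

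Since the ratio of paralogs within a sample is not moved by its scaling, the balance of the RMND5 subunits was also taken as a ratio, without a pseudocount. Rmnd5a was 2.73 ± 0.22 times Rmnd5b in WT (SD, n = 6), 2.49 ± 0.61 times in HetKO (SD, n = 6) and 1.83 ± 0.28 times in HM (SD, n = 6). The highest HM ratio, 2.12, lay below the lowest WT ratio, 2.52. This contrast is also a description, as it contains Rmnd5a in HM and WT. Between HM and HetKO the log2 ratio differed by -0.43 and did not pass the two-sided exact permutation test (p = 0.0325, adjusted over 6 ratio comparisons 0.0974). Without HetKO replicates 2 and 5 it differed by -0.60 (adjusted p = 0.0381 by the same exact test over 4 comparisons). Between HetKO and WT it differed by -0.16 (exact permutation p = 0.288).

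Maea, the other RING-type subunit, had a median of 94.2 TPM in WT (range 83.9 to 100.8), 82.8 TPM in HetKO (78.4 to 99.7) and 99.3 TPM in HM (90.3 to 104.5). The ranges overlapped in all 3 comparisons. Maea was higher in HM than in HetKO by 0.20 on the log2 scale (SE 0.07, adjusted p = 0.0369 from limma). This call did not hold without HetKO replicates 2 and 5 (0.18, adjusted p = 0.0814), without a filter on low TPM (adjusted p = 0.0511), with the replicate number as a block (adjusted p = 0.058) or on pair means (adjusted p = 0.302). Between HM and WT the log2 fold change was 0.08 (95% interval -0.04 to 0.20, adjusted p = 0.266), and after centring 0.25 (adjusted p = 0.00971).

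**Figure D3:**
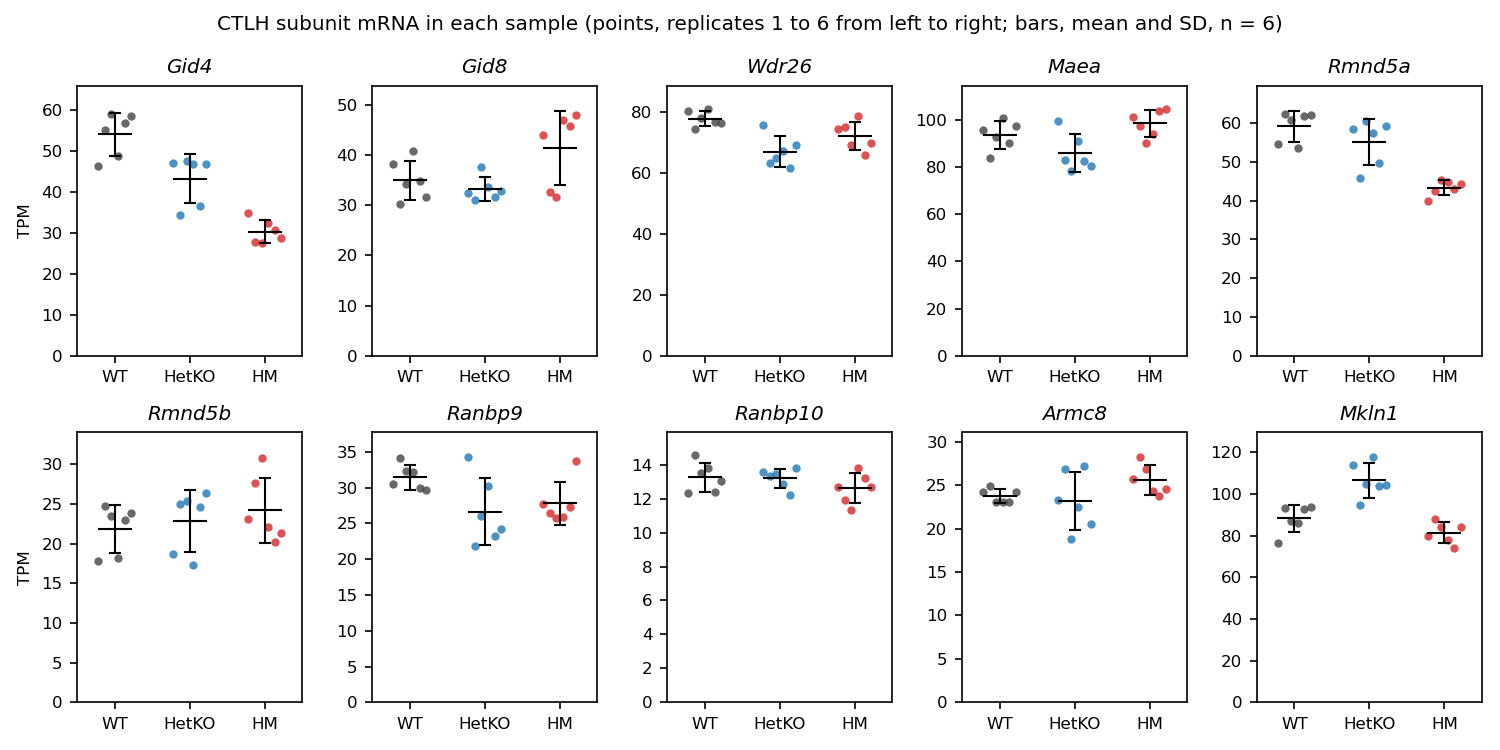
TPM of the 10 subunits in every sample of WT, HetKO and HM (points, replicates 1 to 6 from left to right; bars, mean and SD). Gid4 and Rmnd5a are lowest in HM, Mkln1 is highest in HetKO, and HM replicates 2 and 3 are the low points of Gid8 in HM.

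Among the scaffold genes, Gid8 was unevenly distributed in HM. Its HM values were 44.0, 32.6, 31.7, 46.9, 45.8 and 47.9 TPM in replicates 1 to 6. Replicates 2 and 3 lay within the WT range of 30.3 to 40.8 TPM and the HetKO range of 31.1 to 37.7 TPM, and the other 4 lay above both. With all samples the log2 fold change was 0.23 against WT (SE 0.12, adjusted p = 0.124 from limma) and 0.29 against HetKO (SE 0.11, adjusted p = 0.0569), and neither passed. Without HM replicates 2 and 3 it was 0.40 against WT (adjusted p = 0.0023) and 0.46 against HetKO (adjusted p = 0.000717), no other HM pair having been left out. With all samples it also passed after centring, at 0.40 against WT (adjusted p = 0.0244) and 0.41 against HetKO (adjusted p = 0.0197). Against HetKO it passed with quantile normalization (0.34, adjusted p = 0.0295) and in a single fit of the 3 lines (adjusted p = 0.033).

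Ranbp9, a scaffold subunit with an SPRY domain, ranged from 29.7 to 34.1 TPM in WT, 21.9 to 34.3 TPM in HetKO and 25.8 to 33.7 TPM in HM. The lines overlapped, and the log2 fold change was -0.18 between HM and WT (95% interval -0.33 to -0.02, adjusted p = 0.0515 from limma), -0.25 between HetKO and WT (adjusted p = 0.129) and 0.07 between HM and HetKO (adjusted p = 0.647). With a filter of 5 TPM the first of these passed (adjusted p = 0.0448), and after centring it was 0.00. Nol7, on the opposite strand, overlaps Ranbp9 by 4423 bases and has a mean of 259.9 TPM against 28.6 TPM for Ranbp9, so these values are uncertain if strand was not used in counting. Its paralog Ranbp10 was the least abundant and least variable subunit, at 12.3 to 14.6 TPM in WT, 12.2 to 13.8 TPM in HetKO and 11.3 to 13.8 TPM in HM. Its log2 fold changes were -0.07, -0.01 and -0.06 in the 3 comparisons (adjusted p = 0.425, 0.961 and 0.521 from limma). The ratio of Ranbp9 to Ranbp10 was 2.37 ± 0.07 in WT, 2.02 ± 0.35 in HetKO and 2.21 ± 0.26 in HM (SD, n = 6 each). Its differences in log2 ratio of -0.11, -0.25 and 0.14 did not pass the exact permutation test (adjusted p = 0.247, 0.104 and 0.288).

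Wdr26 and Mkln1, which link CTLH units into larger assemblies, passed in HetKO against WT and did not pass in HM against WT. Wdr26, a WD40 protein that also receives substrates, ranged from 74.4 to 81.1 TPM in WT with a median of 77.4, from 61.8 to 75.8 TPM in HetKO with a median of 66.2, and from 66.1 to 78.9 TPM in HM with a median of 72.2. HetKO replicate 1 reached into the WT range and the other 5 lay below it. HetKO differed from WT by a log2 fold change of -0.21 (SE 0.05, adjusted p = 0.0271 from limma). It did not pass after centring (-0.16, adjusted p = 0.0974), without HetKO replicates 2 and 5 (-0.17, adjusted p = 0.0751) or on pair means (adjusted p = 0.481). Between HM and WT it was -0.11 (95% interval -0.22 to 0.00, adjusted p = 0.0922 from limma), and between HM and HetKO 0.11 (adjusted p = 0.215), or 0.22 after centring (adjusted p = 0.0139).

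Mkln1, muskelin, was highest in HetKO. It ranged from 76.6 to 93.7 TPM in WT with a median of 89.9, from 94.8 to 117.8 TPM in HetKO with a median of 104.5, and from 74.0 to 87.8 TPM in HM with a median of 82.1. All HetKO samples lay above all samples of both other lines. The samples did not overlap for 8.21% of all genes in HetKO against WT and for 15.5% in HM against HetKO. The log2 fold change was 0.27 between HetKO and WT (SE 0.07, adjusted p = 0.0229 from limma) and -0.38 between HM and HetKO (SE 0.06, adjusted p = 0.000947). The difference from WT was 0.32 without HetKO replicates 2 and 5 (adjusted p = 0.014), and it did not pass with the replicate number as a block (adjusted p = 0.0734) or on pair means (adjusted p = 0.426). The difference between HM and HetKO did not pass on pair means (adjusted p = 0.0979). Between HM and WT the log2 fold change was -0.12 (95% interval -0.25 to 0.02, adjusted p = 0.134 from limma).

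Summed over the 10 subunits, the level was 498.1 ± 11.5 TPM in WT, 477.0 ± 28.3 TPM in HetKO and 457.5 ± 10.6 TPM in HM (SD, n = 6 each). Gid4 made up 10.8% of this sum in WT, 9.02% in HetKO and 6.63% in HM. On the log2 scale its ratio to the geometric mean of the other 9 was 0.42 ± 0.13 in WT, 0.14 ± 0.18 in HetKO and -0.37 ± 0.14 in HM (SD, n = 6 each). All HM samples were below 0 and all WT samples above it. HetKO replicates 2 and 5, at -0.11 and -0.05, were the only HetKO samples below 0. No test is given for this ratio, for the reason stated for Gid4.

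**Figure D4:**
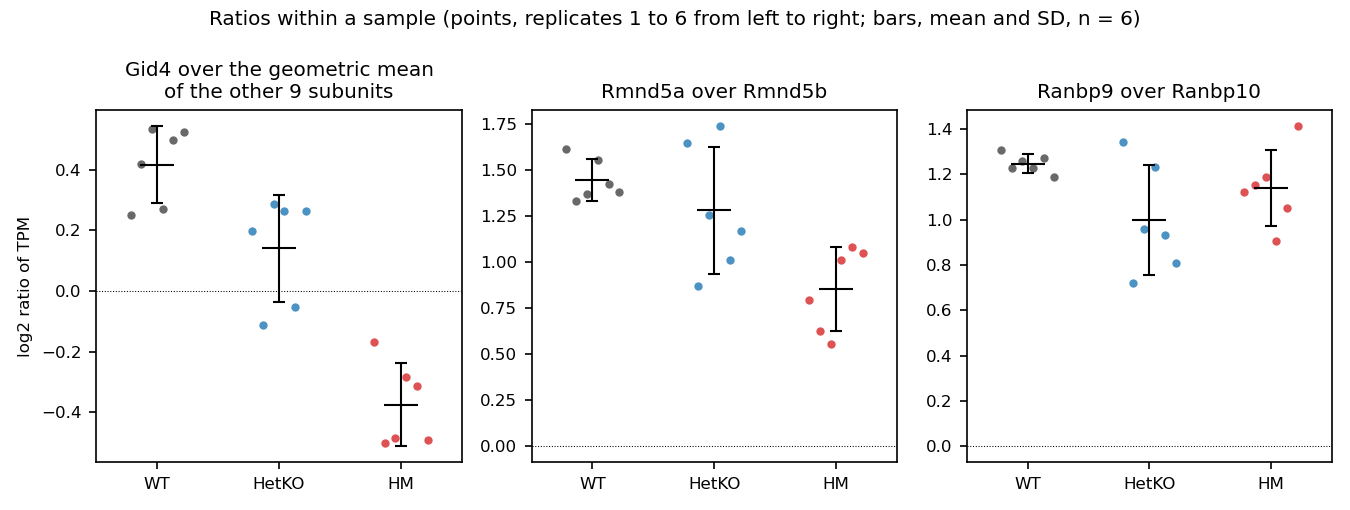
Log2 ratios of TPM within each sample of WT, HetKO and HM (points, replicates 1 to 6 from left to right; bars, mean and SD): Gid4 over the geometric mean of the other 9 subunits, Rmnd5a over Rmnd5b and Ranbp9 over Ranbp10. The first ratio is negative in all 6 HM samples and positive in all 6 WT samples, and the Rmnd5a to Rmnd5b ratios of HM lie below those of WT.

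The mRNAs of both listed partners of the complex were lower in HM than in WT. Ube2h, the E2 enzyme of CTLH, was at 29.4 to 31.3 TPM in WT and at 12.9 to 27.7 TPM in HM, without overlap. HetKO replicates 2 and 5 had 13.6 and 15.2 TPM and the other 4 had 26.3 to 28.4 TPM, so HetKO too lay wholly below WT. Between HetKO and WT, 8.21% of all genes had no overlap in either direction. Ypel5, a CTLH-bound protein of the Yippee family, was at 11.9 to 16.5 TPM in WT and 2.46 to 10.7 TPM in HM, again without overlap, and at 4.21 and 5.06 TPM in HetKO replicates 2 and 5 against 11.9 to 13.3 TPM in the others. Both of the 2 listed partners passed between HM and WT, beside 32.0% of all genes that were lower and 28.5% whose HM and WT samples did not overlap. The log2 fold change was -0.62 for Ube2h (SE 0.16, adjusted p = 0.00517 from limma) and -1.25 for Ypel5 (SE 0.27, adjusted p = 0.00217). On pair means Ube2h did not pass (adjusted p = 0.0748) and Ypel5 did (adjusted p = 0.0426). Neither passed between HetKO and WT, at -0.42 (adjusted p = 0.133) and -0.55 (adjusted p = 0.181), and without HetKO replicates 2 and 5 the values were -0.13 and -0.12. Against HetKO, HM differed by -0.19 for Ube2h (adjusted p = 0.537), and at -0.49 without those replicates (adjusted p = 0.0547). Ypel5 was at -0.70 (adjusted p = 0.144), and at -1.12 without those replicates (adjusted p = 0.0153).

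Of 6 proteins reported as CTLH substrates, 3 had higher and 2 lower mRNA in HM than in WT, beside 19.4% and 32.0% of all genes. Samples of HM and WT did not overlap, in either direction, for 28.5% of all genes. CTLH acts on protein, which was not measured here. Ddx21, an RNA helicase of the nucleolus, rose from a mean of 210.4 TPM in WT to 319.3 TPM in HM, by a log2 fold change of 0.60 (SE 0.10, adjusted p = 0.000501 from limma), and all HM samples lay above all WT samples. Its paralog Ddx50 was lower, at -0.25 (SE 0.06, adjusted p = 0.0045), a call that ended after centring (-0.08, adjusted p = 0.389) and on pair means (adjusted p = 0.0879). Fam72a, which antagonises the uracil glycosylase UNG2, was higher in HM with all HM samples at or above 6.50 TPM and all WT samples at or below 6.40 TPM (log2 fold change 0.39, SE 0.09, adjusted p = 0.00425), and on pair means the adjusted p was 0.0907. Hbp1, a transcriptional repressor of cell cycle genes, was lower at -0.73 (SE 0.15, adjusted p = 0.00177), with HM replicate 1 at 77.7 TPM inside the WT range of 70.4 to 94.0 TPM. Zmynd19 was at 0.02 (95% interval -0.10 to 0.14, adjusted p = 0.729).

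Hmgcs1, the cytosolic HMG-CoA synthase of cholesterol synthesis, had its lowest values in HetKO. It was at 95.3 to 157.5 TPM in WT, 38.7 to 83.7 TPM in HetKO and 130.1 to 182.1 TPM in HM. HetKO lay wholly below both other lines, with replicates 2 and 5 lowest. Of all genes, 8.21% had no overlap in either direction between HetKO and WT, and 15.5% had none between HM and HetKO. The log2 fold change was -0.96 between HetKO and WT (SE 0.21, adjusted p = 0.0139 from limma), or -0.64 without HetKO replicates 2 and 5 (adjusted p = 0.0198), and on pair means the adjusted p was 0.312. Between HM and HetKO it was 1.33 (SE 0.19, adjusted p = 0.000372), or 1.01 without HetKO replicates 2 and 5. Between HM and WT it was 0.37 (SE 0.12, adjusted p = 0.0223), which did not pass without HM replicates 2 and 3 (adjusted p = 0.0884) or on pair means (adjusted p = 0.129).

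**Figure D5:**
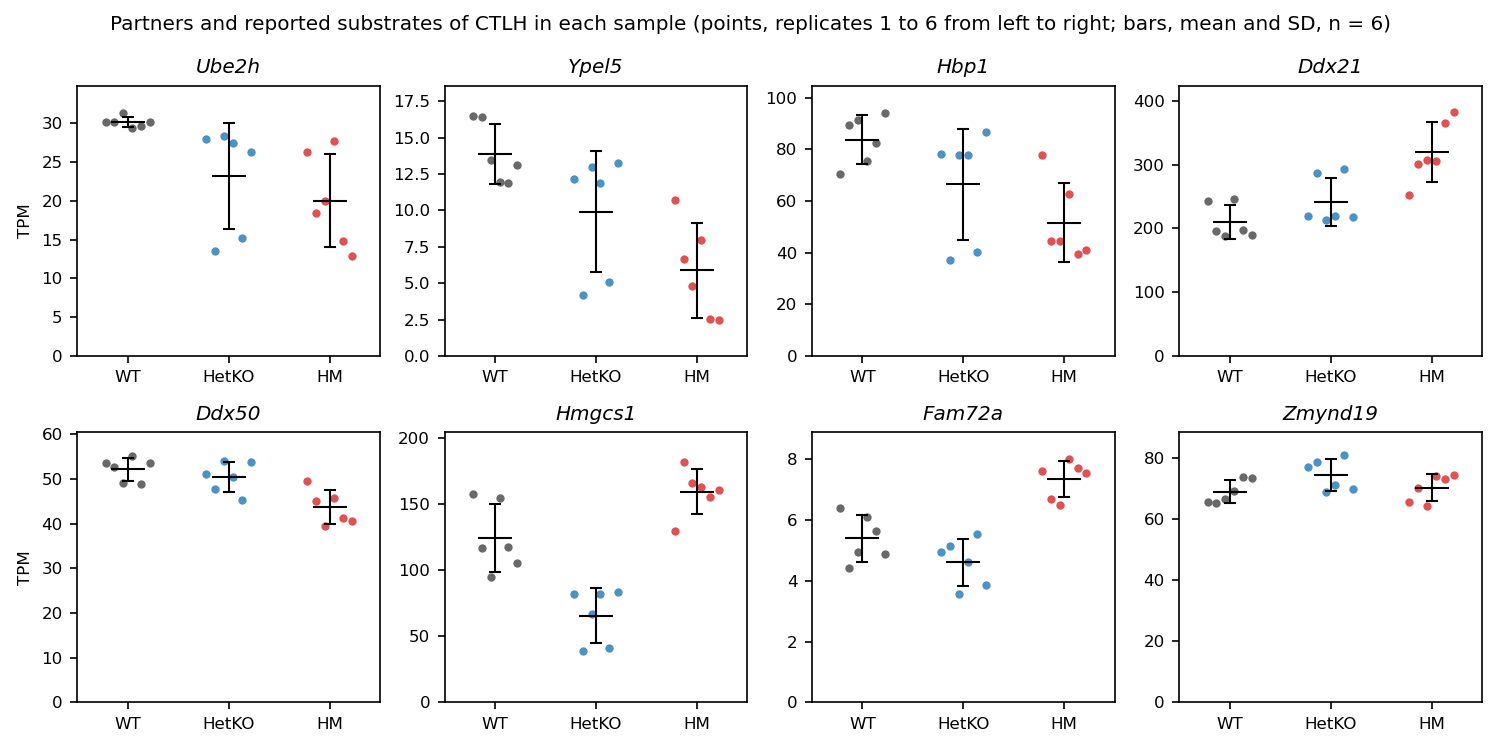
TPM of the CTLH partners Ube2h and Ypel5 and of 6 reported substrates in every sample of WT, HetKO and HM (points, replicates 1 to 6 from left to right; bars, mean and SD). HetKO replicates 2 and 5 are the low points of Ube2h, Ypel5, Hbp1 and Hmgcs1 in that line.

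The gluconeogenic enzymes, the substrates for which the yeast complex is named, were partly expressed. Of 9 listed genes 6 could be tested between HM and WT, of which 1 was higher and 3 lower in HM, beside 19.4% and 32.0% of all genes. The median of their log2 fold changes was -0.44. Mdh2, mitochondrial malate dehydrogenase, rose by a log2 fold change of 0.26 (SE 0.07, adjusted p = 0.00911 from limma), and 0.43 after centring. G6pc3, a broadly expressed glucose-6-phosphatase, was at -1.31 (SE 0.25, adjusted p = 0.000971), and Pcx, pyruvate carboxylase, at -0.60 (SE 0.12, adjusted p = 0.000954). Fbp1, fructose-1,6-bisphosphatase, also passed but was near the filter, at 1.44 TPM in WT and 0.638 TPM in HM, and did not pass after centring (adjusted p = 0.0834). Between HetKO and WT none of the 6 passed by limma, beside 10.2% of all genes.

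Other ligase families were counted in the same way between HM and WT. Of 13 cullin-RING core genes tested, 4 were higher and 2 lower, and the median log2 fold change was 0.10. The largest rises were Cul1, a scaffold of SCF ligases, at 0.53 (SE 0.08), and its adaptor Skp1a at 0.40 (SE 0.07), and the falls were Cul4a at -0.34 (SE 0.08) and its adaptor Ddb1 at -0.24 (SE 0.05). After centring Cul4a was at -0.16 (adjusted p = 0.0495) and Ddb1 did not pass (-0.06, adjusted p = 0.506). Of 13 other ligases or receptors for terminal degrons, 3 were higher and 3 lower, with a median of -0.08. Zer1, a receptor for N-terminal glycine, was at -0.86 (SE 0.09, adjusted p = 1.52e-05 from limma) and its relative Zyg11b at -0.30 (SE 0.05, adjusted p = 0.000564), which did not pass after centring (-0.12, adjusted p = 0.0738). Fem1a, a receptor for C-terminal degrons, was at 0.52 (SE 0.13, adjusted p = 0.00542), and Ubr4, an N-recognin, at 0.34 (SE 0.07, adjusted p = 0.00201), or 0.52 after centring. The shares called, 6 of 13 in both families, stood beside 51.4% of all genes.

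The genes most like Gid4 over the 18 samples, by Pearson's r of log2(TPM + 1) among 12065 genes, were Igsf1 (r = 0.986), Mien1 (0.980), Nt5c3 (0.979), Vwa5a (0.974) and Sdf2 (0.974). The samples of a line share their genotype and culture, so these values are a description. With each line centred on its own mean, the same 5 genes had r of 0.920, 0.905, 0.901, 0.903 and 0.886, and the closest were Cd81 (r = 0.962), Rnf220 (0.962), Slc2a12 (0.959), Fzd4 (0.957) and Parm1 (0.956). Of the other subunits, Rmnd5a was the closest to Gid4, at r = 0.926 and place 138 of 12065 over the samples, and at 0.713 after centring of the lines. The 8 remaining subunits ranged from 0.490 for Ranbp10 to -0.557 for Armc8 over the samples.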

How the data were processed

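Poly(A)-selected mRNA was sequenced with a stranded kit from 6 samples each of WT, HetKO and HM P19 cells. RSEM, run by the authors on pairs joined with BBMerge, gave the deposited TPM values, which have 2 decimals. The submitters' processing notes also name cutadapt, STAR and mm10. Each sample sums to about 1000000 TPM, so depth is unknown and no interval or floor from counts was set. All 55450 gene identifiers matched GENCODE vM21.

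Genes averaging 1 TPM or more entered a limma fit (limma 3.58.1, R 4.3.3) of log2(TPM + 1), each comparison on its own 12 samples, with the variance prior following mean expression and Benjamini-Hochberg adjustment over all genes tested. For paralog ratios the test was an exact permutation test, two-sided, whose smallest p for 6 against 6 samples is 0.00216. Other steps used Python 3.11.15, pandas 2.3.3 and scipy 1.17.1. The fit was tested on data simulated from the WT means and spread, with all samples independent and labelled HM and WT. It called 185 of the 200 genes given a 2-fold change, all above a minimum level, and, among the rest of 14043, 6 others. The simulation had neither alike pairs nor the spread of HetKO and HM, so it does not give the error rate in these data.

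The members, lists and alternatives were chosen with earlier results of these data known. Genes were named by a rule: all subunits, Dicer1, from each list the called genes with the largest rise and fall between HM and WT, up to 2 each, the tested genes next to Gid4 by start position (Tom1l2 and Atpaf2), and the 5 genes most like Gid4 by each measure. Partners and substrates, all described, Fbp1, Drg2 and the named neighbours of Rmnd5a went beyond it and were chosen after their values were seen. Alternatives were a pseudocount of 0.1, other filters, centring, quantile normalization, one fit of all 18 samples, a per-gene test with unequal variances, the replicate number as a block, pair means, and leaving out HetKO replicates 2 and 5 or HM replicates 2 and 3. Protein sequences were not analysed here.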

Additional observations from a re-analysis of the deposited data

Results flagged for a closer look

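In 2 of 42 groups of 6 samples (the subunits, Ube2h, Ypel5 and the paralog ratios in each line), 1 sample lay far from the others. Its gap to the next value passed Dixon's limit for 6 values, where chance gives about 2.1 such groups. Gid8 in HetKO had its highest value, 37.7 TPM in replicate 3, at a gap of 0.629 of the range. Ranbp9 in HM had its highest value, 33.7 TPM in replicate 6, at a gap of 0.762 of the range.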

How the results depend on the processing

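Of the settings tried for single subunits, 266 values kept direction and call, 17 passed only under the alternative, 12 no longer passed and 15 changed sign; for partners and substrates these counts were 222, 3, 20 and 3. On pair means, 3414 genes passed between HM and WT (7220 with all samples), 35 in HetKO against WT (1421) and, in HM against HetKO, 454 (4765), with fewer residual degrees of freedom; subunits called fell to 0 in both comparisons with HetKO. The unequal-variance test gave 852 genes between HetKO and WT. Subunits past the threshold between HM and WT were 2, and 6 after centring and 4 with quantile normalization. Of all genes, 51.4%, 52.6% and 50.6% passed in these settings. As these counts include Gid4 and Rmnd5a, they are not read against those shares. Between HetKO and WT, 1 subunit passed with the replicate block, beside 8.6% of all genes. Without HetKO replicates 2 and 5 it was also 1, beside 7.7%. Same-numbered samples deviated together little on average (mean r = 0.01, 0.06 and 0.02), and 1, 3 and 1 of 6 samples correlated best with their own number. The alike pairs of WT and HetKO nevertheless bore the same numbers, 1 and 4, 2 and 5, and 3 and 6. Those of HM were 1 and 4, 2 and 3, and 5 and 6. Whether samples of 1 number share a condition was not tested. With the replicate block 6889 genes passed between HM and WT. The Rmnd5a to Rmnd5b difference between HM and WT, a description, was -0.59 with all samples, with the replicate block (-0.59) and on pair means (-0.59). Its calls are not compared between these, as the exact test on 3 values a line cannot give a p under 0.05. With the block, the smallest p that 6 pairs allow is larger than that for 6 against 6 samples. Between HetKO and WT the difference turned to 0.0045 without HetKO replicates 2 and 5. In HM against HetKO it passed without them (-0.60). Signs that turned were of values that had not passed. After centring, between HM and WT these were Wdr26 (0.0705), Ranbp9 (0.0020), Ranbp10 (0.11) and Mkln1 (0.0628); in HetKO against WT Ranbp10 (0.0489), Armc8 (0.0106) and Ddx50 (0.0063); and in HM against HetKO Ranbp10 (0.0542) and Zmynd19 (0.0334). With quantile normalization Ranbp10 was at 0.119, 0.0547 and 0.0652 in the 3 comparisons. Without HM replicates 2 and 3, Rmnd5b was at -9.6e-05 against WT and -0.0559 against HetKO. Without HetKO replicates 2 and 5, Rmnd5b (-0.0088), Ranbp10 (0.0168) and Ddx50 (0.0074) turned against WT, and Ranbp9 (-0.0367) between HM and HetKO. The cause of these changes was not tested. Values of partners and substrates under these settings were added after the values were seen.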
